A study of Mus musculus with 8 samples.

Results

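The epidermal growth factor (EGF) receptor family and its repair ligands were followed through 8 genes, the ligand genes Areg, Ereg, Hbegf, Tgfa and Btc and the receptor genes Egfr, Erbb2 and Erbb3, out of 23282 lines in the deposited count table. Each gene was taken by its symbol and matched 1 line. The RNA came from intestinal tissue of wild-type C57BL/6 mice, but the labels do not name the part of the gut. The group ExDSS received 1 mg of bovine colostrum exosomes, small vesicles secreted into the first milk, by gavage every day for 3 weeks, and then 3% (w/v) dextran sodium sulfate (DSS) in the drinking water for 6 days. The group PC received phosphate buffered saline by gavage and then the same DSS. The group Ex received the exosomes and no DSS, and the group NC received saline and no DSS. DSS injures the gut lining and is widely used to induce colitis in mice. Each group has 2 libraries. Nothing in the labels ties the 2 to different animals, and the spread that the p-values rest on may therefore be technical.

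Ligands of the EGF family are made as membrane proteins, cut loose by metalloproteases of the ADAM type, and bind receptors of the ErbB family on the same or neighbouring cells. Egfr binds Areg, Tgfa, Ereg, Hbegf and Btc, Erbb2 has no known ligand and acts as the partner of the other receptors, and Erbb3 binds neuregulins and signals through its partners because its own kinase is weak. In the gut, epithelial cells, stromal cells and myeloid cells all make ligands of this family, and signalling through the receptor drives division and migration of epithelial cells after injury.

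Total counts were between 8813622 and 12308537 in 7 libraries and 1163147 in Ex 2, where 53.5% of them fell on the ribosomal RNA precursor Rn45s. The 8 epithelial markers summed to between 3910 and 6910 normalised CPM (counts relative to the TMM-scaled library total) in the other 7 libraries and to 59.6 CPM in Ex 2, although all 8 had counts in every library. Pancreatic acinar genes held 20.5% of the counts of ExDSS 1 and 9.18% of those of NC 2, against at most 0.0617% elsewhere. The neutrophil genes stand against the group labels. S100a8, a calprotectin subunit, was at 559 and 1170 CPM in the libraries labelled ExDSS, at 0.291 and 0.628 CPM in those labelled PC, at 0 and 1.12 CPM in those labelled Ex, and at 791 and 824 CPM in those labelled NC, which had no DSS. Whether labels were exchanged was not tested, and every direction below holds for the libraries as they are labelled.

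Ereg encodes epiregulin, a ligand of Egfr and Erbb4 that is made by myeloid and stromal cells as well as epithelium. Its level was 136 and 208 CPM in the libraries labelled ExDSS (172 ± 51.1, SD, n = 2), 3.42 and 4 in PC (3.71 ± 0.413), 3.37 and 1.49 in Ex (2.43 ± 1.33), and 56.6 and 131 in NC (93.6 ± 52.4). All libraries of ExDSS and NC thus lay far above all libraries of PC and Ex. Between ExDSS and NC, and between PC and Ex, the libraries just failed to overlap, with gaps smaller than the spread within ExDSS and NC and within Ex. The Ex 2 value rests on 1 count, and 3 counts in that library would be 4.47 CPM.

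**Figure D1:**
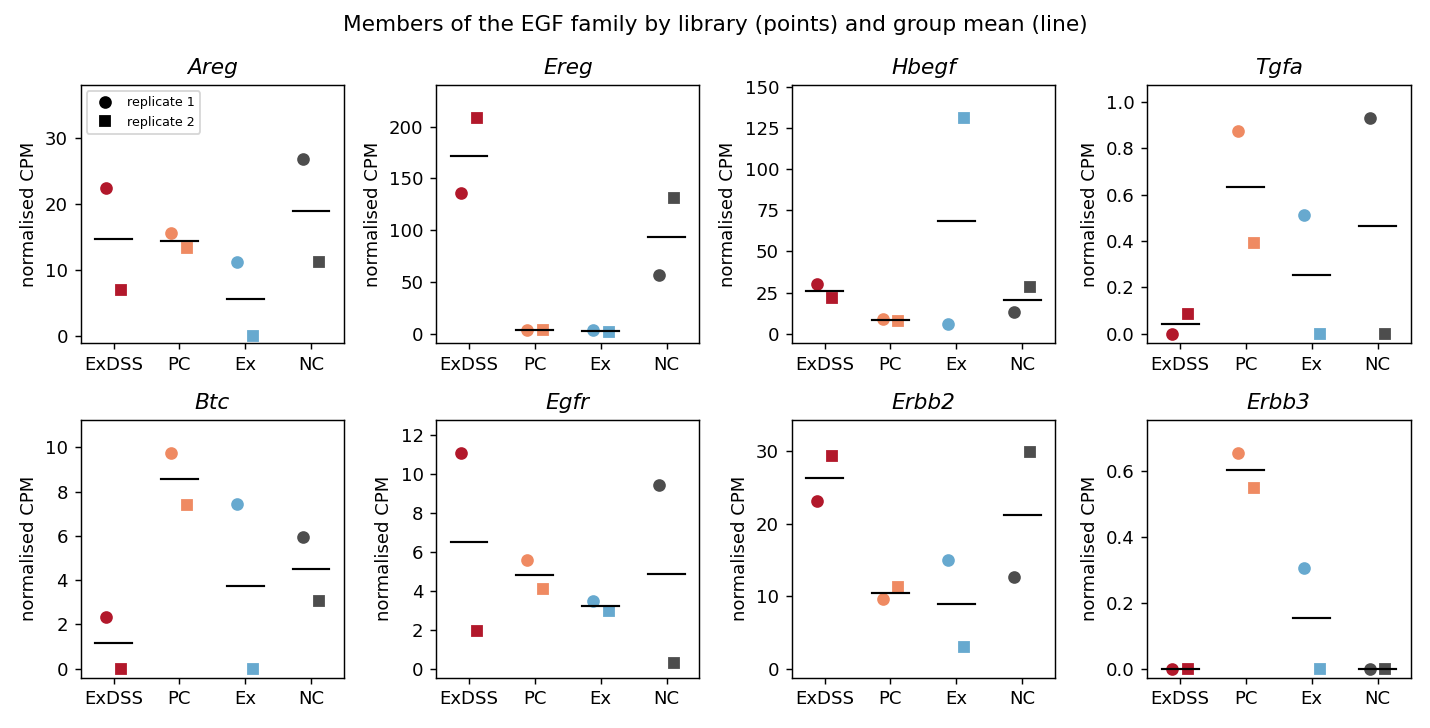
Normalised CPM (vertical axes, from 0, a separate scale for each gene) of the 8 genes in the groups ExDSS, PC, Ex and NC. Circles are replicate 1, squares replicate 2 and lines group means of n = 2. Ereg separates ExDSS (136 and 208 CPM) and NC (56.6 and 131 CPM) from PC and Ex, all under 5 CPM in those 2 groups, while Hbegf in Ex 2 stands alone at 131 CPM.

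The design asks whether the difference made by DSS depends on exosome pretreatment, which is the interaction (ExDSS − Ex) − (PC − NC) on the log2 scale. Ereg passed this test with an interaction of 10.66 (SE 2.09, edgeR quasi-likelihood test, Benjamini-Hochberg adjusted p = 0.0284). It was the only one of the 7 members tested that did, against 0.288% of all 14567 genes called (38 positive and 4 negative). It was also the only one with an unadjusted p under 0.05, which 5.86% of all genes had with a positive and 13.0% with a negative interaction. limma-voom gave it an adjusted p of 0.0413 with 2.24% of genes called, and DESeq2 one of 1.17e-07 with 12.2% called. Both parts of the interaction run in opposite directions: Ereg was 70.8-fold higher in ExDSS than in Ex (log2 fold change 6.01, SE 1.54), and its mean in PC was 0.0396 of that in NC (−4.65, SE 1.41). Neither part passed by itself (edgeR adjusted p = 0.166 and 1). The interaction and its sign rest on the labels PC and NC, which the neutrophil genes go against. The sum of both DSS differences, which is what the same contrast would be with PC and NC read the other way round, was 1.35 (SE 1.77, edgeR adjusted p = 1), a value computed after seeing the data. Leaving out any single library kept the interaction between 9.95 and 11.62. The adjusted p stayed under 0.05 only without Ex 1, where Ex 2 with its 1 count of Ereg stood alone. The interaction did not pass without any of the other 7 libraries. With total counts in place of TMM scaling the interaction was 10.33 with an edgeR adjusted p of 0.1.

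Exosomes before DSS were set against DSS alone, and Ereg was 46.4-fold higher in ExDSS than in PC (log2 fold change 5.53, SE 1.47, edgeR adjusted p = 0.228). Exosomes alone were set against neither treatment, and the Ereg mean in Ex was 0.0259 of that in NC (−5.13, SE 1.48, edgeR adjusted p = 0.847). These comparisons share their NC or PC or Ex libraries with each other and with the interaction, so they are not separate evidence. edgeR called no gene at all in any of the 4 pairwise comparisons (0% of 14567 each), whereas DESeq2 called Ereg and no other member in all 4. DESeq2 gave no adjusted p for Tgfa in any of the 4, nor for Btc and Egfr in PC against NC and Ex against NC. These members could not be called there. DESeq2's adjusted p for Ereg was 0.000111 for ExDSS against PC (10.9% of genes called), 0.000179 for ExDSS against Ex (14.6%), 0.00612 for PC against NC (0.856%) and 0.00942 for Ex against NC (3.55%). limma-voom called it for ExDSS against PC (adjusted p = 0.0318, 7.96% of genes called) and for ExDSS against Ex (0.0404, 3.47%), but not for PC against NC, where it called 0.0137% of genes. At an unadjusted p under 0.05, edgeR had Ereg as the only member in each pairwise comparison, where 2.84% of all genes were higher and 16.1% lower in ExDSS than in PC, 3.55% higher and 16.2% lower in ExDSS than in Ex, 0.686% higher and 1.81% lower in PC than in NC, and 2.89% higher and 2.42% lower in Ex than in NC.

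**Figure D2:**
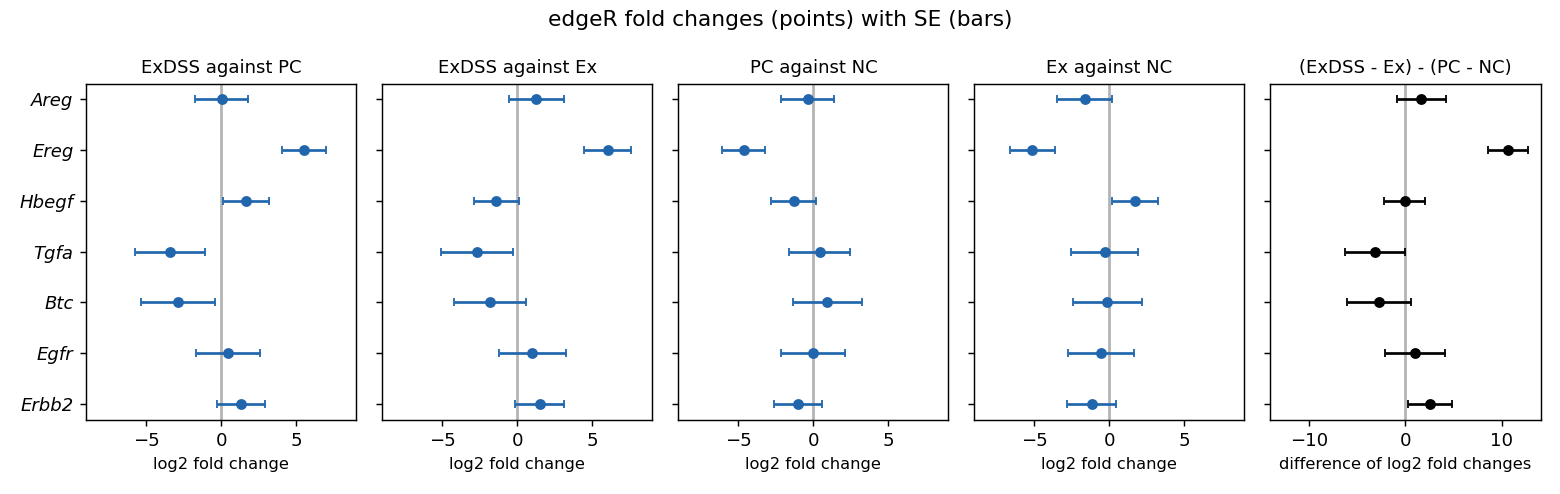
Log2 fold changes from edgeR (horizontal axes) of the 7 genes tested in the 4 pairwise comparisons, and their interaction in the last panel, which has a wider axis. Points are estimates and bars 1 SE. Ereg lies at 5.53, 6.01, −4.65, −5.13 and 10.66, farther from 0 than any other gene in each panel.

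The summed levels of marker genes of myeloid, mast, innate lymphoid and fibroblast cells split the libraries as Ereg did. The 8 neutrophil markers summed to 2990 and 1940 CPM in ExDSS, 9.38 and 8.63 in PC, 7.86 and 5.96 in Ex, and 2370 and 2180 in NC. Between 7 and 8 of the 8 had counts in each library of ExDSS and NC, between 6 and 7 in PC, 5 in Ex 1 and 1 in Ex 2, where S100a8, Retnlg, Cxcr2, Csf3r, Mmp8, Stfa2 and Il1r2 were at 0. Csf3r was also at 0 in both ExDSS libraries. The 8 macrophage and monocyte markers summed to 2440 and 3280 CPM in ExDSS, 233 and 329 in PC, 304 and 17.9 in Ex, and 949 and 2560 in NC, and all 8 had counts in every library but Ex 2. Mast cell markers summed to 236 and 129 CPM in ExDSS, 19.9 and 17.1 in PC, 20.8 and 0 in Ex, and 86.6 and 107 in NC. The 7 fibroblast markers summed to 3680 and 3450 CPM in ExDSS, 1550 and 2220 in PC, 2620 and 55.1 in Ex, and 4380 and 3570 in NC, with Pdgfra and Pdgfrb at 0 in Ex 2. The 6 markers of type 2 innate lymphoid cells summed to 74.6 and 52.5 CPM in ExDSS, 28.7 and 35.9 in PC, 29.2 and 25.3 in Ex, and 63.7 and 115 in NC. The defining cytokine genes Il5 and Il13 were at 0 in all libraries. Klrg1 was also at 0 in ExDSS 1 and Gata3 in ExDSS 2. Only 3 of the 6 had counts in each ExDSS library, against 4 in each library of PC and NC and in Ex 1. The ratios between the groups were smaller for the fibroblast and innate lymphoid sums than for the neutrophil sum. The part of these cells in the Ereg result was not tested. In bulk tissue more cells of a type and more RNA per cell cannot be told apart. General epithelial markers did not follow the same split, at 5000 and 4330 CPM in ExDSS, 4240 and 3910 in PC, 4530 and 59.6 in Ex, and 4390 and 6910 in NC. The 4 colonocyte markers, those of absorptive epithelium, ran the other way except in Ex 2. They were at 1260 and 3120 CPM in ExDSS, 5720 and 4750 in PC, 9130 and 31.3 in Ex, and 1830 and 2920 in NC. The 6 smooth muscle markers did likewise. Their sums were 2350 and 2370 CPM in ExDSS, 3160 and 3680 in PC, 4090 and 32.8 in Ex, and 1720 and 2890 in NC. Neither the enteric neuron and glia sum nor the adipocyte sum followed the split of Ereg.

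**Figure D3:**
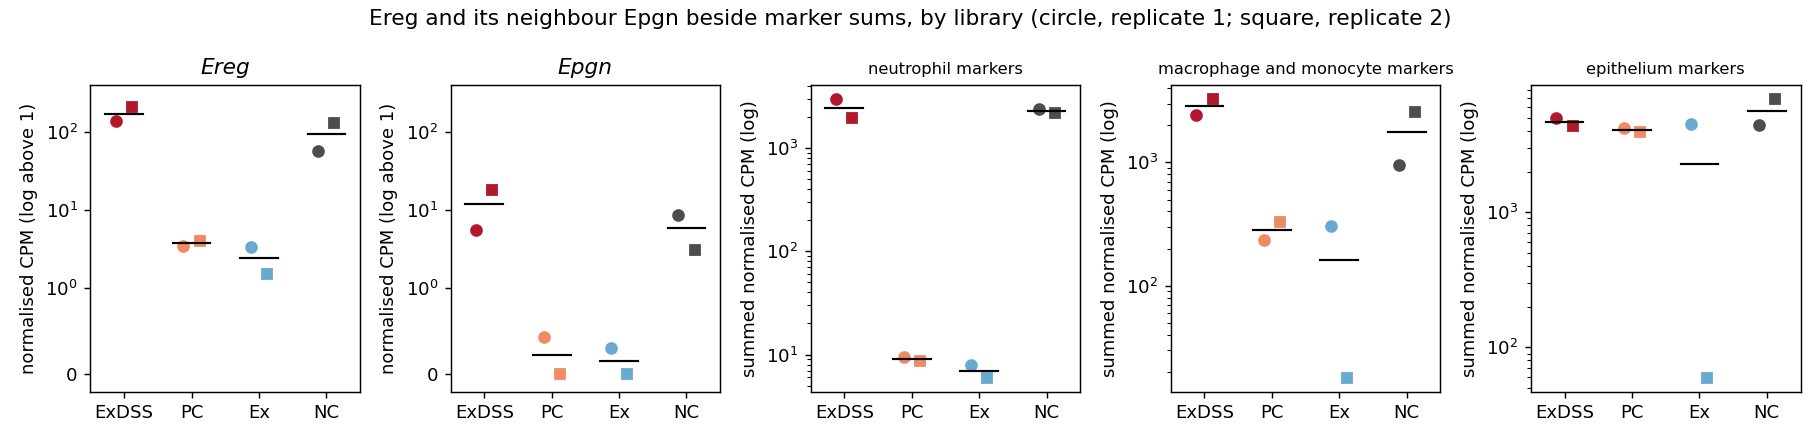
Ereg, its neighbour Epgn and the summed normalised CPM of neutrophil, macrophage and monocyte, and epithelial marker genes by library (circles replicate 1, squares replicate 2, lines group means, n = 2). The vertical axes are logarithmic, above 1 CPM in the panels of Ereg and Epgn and throughout in the others. Neutrophil markers split as Ereg does, at 1940 CPM and above in ExDSS and NC and under 10 CPM in PC and Ex, while epithelial markers are low only in Ex 2.

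The profile of Ereg across the 8 libraries, taken as log2 CPM centred on its mean, was compared with those of 10041 genes of at least 5 CPM. The nearest were Spi1, which encodes the myeloid transcription factor PU.1, Il1r2 and Chil1, with root-mean-square differences of 0.50, 0.52 and 0.59 on the log2 scale, where the profile of Ereg itself had an SD of 2.90. Il1r2 is one of the 8 neutrophil markers. The nearest profiles to Areg were those of Ttc28, Pitrm1 and Rps19bp1 (0.37 to 0.39), and to Btc those of Chkb, Spint2 and Rnaseh2a (0.46 to 0.47). For Hbegf they were Fuz, Ap2a1 and Rab5c (0.27 to 0.32), for Egfr Ankrd44, Impact and Tead3 (0.40 to 0.60), and for Erbb2 Rps12, Rab11b and Eva1b (0.06 to 0.23). The profiles of these members varied less than that of Ereg, with an SD of 2.27 for Areg, 2.33 for Btc, 1.44 for Hbegf, 1.43 for Egfr and 1.06 for Erbb2.

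Ereg, Areg and Btc lie together on chromosome 5 with Epgn, which encodes epigen, another ligand of Egfr. In the deposited coordinates, which overlap GRCm38 genes of the same name for 99.7% of the 21982 genes compared, Epgn runs from 91027517 to 91035212, Ereg from 91074617 to 91093649 and Areg from 91139615 to 91148432, all on the plus strand, and Btc from 91357261 to 91402994 on the minus strand. The stretch spans 375 kb and holds 5 lines of the table, these 4 included. Epgn had 5.49 and 18.2 CPM in ExDSS, 0.436 and 0 in PC, 0.306 and 0 in Ex, and 8.55 and 3.05 in NC. Except in Ex 2, where no count allows up to 4.47 CPM, its libraries fell on the same sides as those of Ereg, at lower counts. The Epgn interaction was 10.21 (SE 3.79) and did not pass (edgeR adjusted p = 0.196). Epgn was 54.2-fold higher in ExDSS than in PC (log2 fold change 5.68, SE 2.66, edgeR adjusted p = 0.251). The 54.2 is a ratio of mean CPM and rests on 6 and 0 counts in PC. With the counts of both libraries pooled, the ratio of ExDSS to the 3 counts of Ex was 46.6 (95% interval 15.8 to 228 from exact counting error alone). The pooled ratio of Ex to NC was 0.0455 (0.00929 to 0.135). As ratios of mean CPM they were 77.2 and 0.0264.

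**Figure D4:**
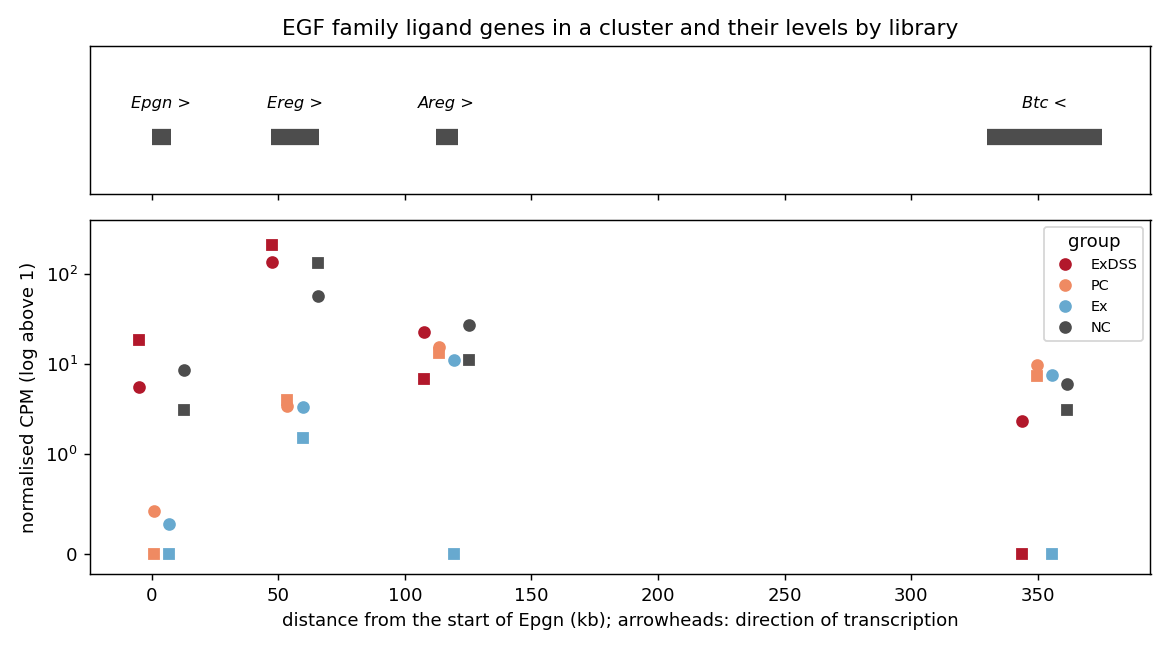
Positions of Epgn, Ereg, Areg and Btc as distance from the start of Epgn in kb (upper panel, arrowheads for the direction of transcription), and their normalised CPM by library below (logarithmic above 1 CPM; circles replicate 1, squares replicate 2; points of a gene are spread sideways by group). Epgn and Ereg are high in ExDSS and NC, whereas Areg overlaps between these groups and PC and Btc is lowest in ExDSS among ExDSS, PC and NC.

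Areg encodes amphiregulin, a ligand of Egfr made by epithelium and by innate lymphoid and other immune cells. It had 22.4 and 6.87 CPM in ExDSS (14.6 ± 11, SD, n = 2), 15.6 and 13.2 in PC (14.4 ± 1.73), 11.2 and 0 in Ex, and 26.7 and 11.2 in NC (18.9 ± 11). The ranges of ExDSS, PC and NC overlapped, and no count was found in Ex 2, which allows up to 4.47 CPM. The log2 fold changes were 0.02 (SE 1.78) for ExDSS against PC, 1.26 (SE 1.82) for ExDSS against Ex, −0.39 (SE 1.78) for PC against NC and −1.64 (SE 1.83) for Ex against NC. None passed (edgeR adjusted p from 0.77 to 1). Areg lies next to Ereg in this cluster, and its libraries did not split as those of Ereg did. Its interaction was 1.65 (SE 2.54, edgeR adjusted p = 0.794), and ran from 0.5 to 10.63 when 1 library was left out. The difference between both genes' interactions was not tested.

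Btc, which encodes betacellulin, a ligand of Egfr and Erbb4, had 2.33 and 0 CPM in ExDSS (1.17 ± 1.65), 9.74 and 7.38 in PC (8.56 ± 1.67), 7.45 and 0 in Ex (3.73 ± 5.27), and 5.97 and 3.05 in NC (4.51 ± 2.06). Both ExDSS libraries lay under both PC and both NC libraries, and both PC libraries lay above both NC libraries. The log2 fold change was −2.88 (SE 2.47) for ExDSS against PC and 0.92 (SE 2.3) for PC against NC, and neither passed (edgeR adjusted p = 0.647 and 1). Its value for Ex against NC was −0.15 (SE 2.3), with 0.76 without Ex 2 and −8.50 without Ex 1.

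Tgfa, the gene of transforming growth factor alpha, which binds Egfr, was near the floor of detection everywhere. It had 0 and 1 counts in ExDSS, 12 and 5 in PC, 5 and 0 in Ex, and 14 and 0 in NC, with at most 0.928 CPM in any library. With the counts of both libraries pooled, the ratio of ExDSS to PC was 0.0811 (95% interval 0.00194 to 0.517, counting error only), and the edgeR adjusted p was 0.505. The table's line for Tgfa ends 295 bases short of the 3′ end of the RefSeq gene on GRCm38.p6. The libraries are of the QuantSeq 3′ type, whose reads start near that end, and how much signal was lost there was not tested.

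Hbegf encodes the heparin-binding ligand of Egfr and Erbb4, which macrophages and wounded epithelium release. It had 30.2 and 21.6 CPM in ExDSS (25.9 ± 6.05), 9.02 and 7.61 in PC (8.31 ± 0.993), 5.72 and 131 in Ex (68.4 ± 88.6), and 13.1 and 28.5 in NC (20.8 ± 10.9). Both ExDSS and both NC libraries were above both PC libraries, and Ex was split between the lowest and the highest value of all 8 libraries. The log2 fold changes were 1.64 (SE 1.51) for ExDSS against PC and −1.32 (SE 1.5) for PC against NC (edgeR adjusted p = 0.687 and 1). Ex 2 decided the sign of both comparisons that use Ex. Ex against NC was 1.70 (SE 1.52) with it and −1.82 without it, and ExDSS against Ex was −1.39 (SE 1.51) with it and 2.22 without it (edgeR adjusted p without Ex 2 = 1 and 0.457). The interaction of Hbegf was −0.07 (SE 2.12) and 3.48 without Ex 2 (edgeR adjusted p = 0.997 and 0.319). Hbegf had 88 counts in Ex 2, where no other member had more than 2.

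Among the receptors, Erbb2 had 23.2 and 29.4 CPM in ExDSS (26.3 ± 4.4, SD, n = 2), 9.67 and 11.3 in PC (10.5 ± 1.15), 15 and 2.98 in Ex (8.99 ± 8.51), and 12.6 and 29.9 in NC (21.3 ± 12.3). ExDSS lay above PC and Ex in both libraries, and NC above PC, while ExDSS and NC overlapped. The Ex 2 value rests on 2 counts, where 3 counts would be 4.47 CPM. The log2 fold changes were 1.33 (SE 1.61) for ExDSS against PC, 1.49 (SE 1.63) for ExDSS against Ex, −1.02 (SE 1.6) for PC against NC and −1.18 (SE 1.62) for Ex against NC. None passed (edgeR adjusted p from 0.674 to 1), nor did the interaction of 2.51 (SE 2.28, edgeR adjusted p = 0.602). The 3′ end of Erbb2 on chromosome 11 (98412484 to 98437716, plus strand) shares 9 bases with that of Mien1 on the minus strand. The sources used here do not say whether reads were counted by strand. Mien1 was at 70.6 and 158 CPM in ExDSS, 158 and 183 in PC, 193 and 1.49 in Ex, and 139 and 208 in NC. The part of Mien1 in the Erbb2 counts was not tested.

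Egfr, the receptor of all 5 ligands (chromosome 11, 16752203 to 16913907), varied most within ExDSS and NC. It had 11.1 and 1.93 CPM in ExDSS (6.52 ± 6.49), 5.6 and 4.08 in PC (4.84 ± 1.07), 3.47 and 2.98 in Ex (3.22 ± 0.349), and 9.42 and 0.286 in NC (4.85 ± 6.46). The highest and the lowest library were in ExDSS and NC. The Ex 2 value rests on 2 counts, where 3 counts would be 4.47 CPM, and the NC 2 value on 3 counts. The small SD within Ex is therefore uncertain. Log2 fold changes were between −0.58 and 1.00 over the pairwise comparisons, with SE between 2.14 and 2.22 and edgeR adjusted p from 0.867 to 1. Without NC 1 the PC against NC value was 4.03, against −0.01 with all libraries. Without ExDSS 1 the ExDSS against PC value was −1.34, against 0.43.

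Erbb3 was the only member that failed the filter on low counts. It had no count in both ExDSS libraries, 9 and 7 counts in PC (0.654 and 0.549 CPM), 3 and 0 in Ex, and none in NC. Against a floor of 3 counts per library, Erbb3 was at least 1.82-fold lower in ExDSS than in PC, and at least 2.48-fold higher in PC than in NC, for counting error only. The line of the table for Erbb3 (chromosome 10, 128569368 to 128589501, minus strand) stops 1845 bases before the 3′ end of the RefSeq gene at 128567523, the longest such gap among the 8 members, of which 6 had none. What these counts miss of Erbb3 was not tested, so they give no level of the receptor. Erbb4, the remaining receptor, had no count in any library.

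By non-overlap of the 2 libraries of each group, 3 of the 7 tested members (Ereg, Hbegf and Erbb2) were higher in ExDSS than in PC against 18.9% of all genes tested, and 2 (Tgfa and Btc) were lower against 45.4%. Between ExDSS and Ex, Ereg and Erbb2 were higher (17.0% of all genes) and 0 members were lower (17.0%). In PC against NC, 3 members (Ereg, Hbegf and Erbb2) were lower against 23.6% of all genes, and 1 (Btc) was higher against 31.0%. In Ex against NC, 1 member (Ereg) was lower against 22.9% and 0 were higher against 11.1%. The median log2 fold change of the 7 was 0.43 for ExDSS against PC, 1.00 for ExDSS against Ex, −0.39 for PC against NC and −0.58 for Ex against NC, beside medians of −0.51, −0.29, 0.10 and −0.27 over all genes tested.

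The other genes of the pathway were described from 6 lists, of which edgeR called 1 gene in all, in the interaction. Of 7 further ligand and receptor genes, 4 were tested and none passed in any comparison. Nrg4, a ligand of Erbb4, had no count in ExDSS, 1.89 and 0.863 CPM in PC, 3.27 and 1.49 CPM in Ex, and 0.796 and 3.34 CPM in NC. It was at least 4.16-fold lower in ExDSS than in PC and at least 7.18-fold lower than in Ex (edgeR adjusted p = 0.228 and 0.236). Egf itself, named after its values were seen, had 33.6 and 17.7 CPM in ExDSS, 0.654 and 1.41 in PC, 0.613 and 7.44 in Ex, and 0 and 6.39 in NC. Its log2 fold change for ExDSS against PC was 4.62 (SE 2.48, edgeR adjusted p = 0.331). Egf and Nrg4 each overlap another line of the table, so their counts are uncertain. Over the lists the median log2 fold change for ExDSS against PC was 1.47 for the 4 tested genes of this list, 0.87 for the sheddases, −0.18 for receptor feedback and 0.06 for ERK-induced genes, beside −0.51 over all genes. The 1.47 stands for no shared direction, since 2 of its genes were positive and 2 negative, from −6.83 to 5.68.

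None of the 11 sheddase and iRhom genes passed. Adam17, the main protease that releases Areg, Ereg, Tgfa and Hbegf and likewise named after its values were seen, had 38.9 and 48.2 CPM in ExDSS, 43.1 and 40.2 in PC, 35 and 23.8 in Ex, and 86 and 76.3 in NC. Adam15, another metalloprotease of the family, followed the split of Ereg, with 311 and 249 CPM in ExDSS, 19.8 and 29.8 in PC, 46.9 and 0 in Ex, and 60.9 and 483 in NC. Its interaction was 6.98 (SE 2.3, edgeR adjusted p = 0.162). Adam19 had 0 and 4.1 CPM in ExDSS, 5.82 and 7.06 in PC, 5.21 and 162 in Ex, and 2.72 and 0.477 in NC.

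Of 18 genes of receptor feedback and turnover, none passed in any comparison. Errfi1, which blocks the kinase of Egfr, had 31 and 45.8 CPM in ExDSS, 14.5 and 17.2 in PC, 17.2 and 447 in Ex, and 22.8 and 6.77 in NC. ExDSS was above PC in both libraries (log2 fold change 1.28, SE 1.38, edgeR adjusted p = 0.752). Spred2, an inhibitor of the ERK cascade, had no count in ExDSS, 0.872 and 0.941 CPM in PC, 0.715 and 0 CPM in Ex, and 0.796 and 0 CPM in NC. Of 19 adaptor and ERK cascade genes tested, none passed, and 10 were lower in ExDSS than in PC without overlap and 4 higher, where 45.4% and 18.9% of all genes were. Gab1, a docking protein of the receptor, had 0.274 and 0.167 CPM in ExDSS, 15.4 and 14.8 in PC, 12.2 and 5.96 in Ex, and 10.1 and 1.14 in NC. Its log2 fold change for ExDSS against PC was −6.04 (SE 2.45, edgeR adjusted p = 0.228). Map2k1, which encodes the kinase MEK1, had 2.33 and 10.5 CPM in ExDSS, 51.5 and 64.5 in PC, 80.6 and 73 in Ex, and 57.6 and 11.1 in NC. Both genes were thus also low in NC 2. The Map2k1 log2 fold change for ExDSS against PC was −3.17 (SE 1.45, edgeR adjusted p = 0.24). The list median was −0.86 for this comparison, beside −0.51 over all genes.

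Genes that ERK signalling induces went both ways, with none of 18 called. Ier3, an early response gene, had 306 and 491 CPM in ExDSS, 27.3 and 23.4 in PC, 22.2 and 2.98 in Ex, and 129 and 268 in NC. ExDSS and NC were above PC and Ex in all libraries, as for Ereg, and the Ier3 interaction was 7.88 (SE 2.03, edgeR adjusted p = 0.101). Fosl1, a subunit of the transcription factor AP-1, had no count in ExDSS, 0.945 and 0.785 CPM in PC, 0.408 and 331 CPM in Ex, and 0.928 and 2 CPM in NC. Its high mean in Ex came from Ex 2 alone.

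Repair factors outside the family held the 1 listed gene that passed. Il11, a stromal cytokine of epithelial repair, had 94.3 and 109 CPM in ExDSS, 0.727 and 0.314 in PC, 1.12 and 0 in Ex, and 70.2 and 53.5 in NC. Its interaction was 13.78 (SE 2.43, edgeR adjusted p = 0.0151), and it split the libraries as Ereg did. Its log2 fold changes were 6.93 (SE 1.75) for ExDSS against Ex and −6.86 (SE 1.69) for PC against NC. The Il11 interaction thus also rests on the labels PC and NC, and its hold under other settings was not tested. Igf1, a stromal growth factor, had 382 and 380 CPM in ExDSS, 37 and 38.8 in PC, 53.9 and 2.98 in Ex, and 235 and 265 in NC, with an interaction of 6.42 (SE 2.02) that did not pass (edgeR adjusted p = 0.156). Of the 12 tested genes of this list, 11 had positive log2 fold changes for ExDSS against PC and 11 negative ones for PC against NC. None was called in either. Of all 14567 genes tested, 5920 were positive for ExDSS against PC and 6798 negative for PC against NC. Both comparisons use the same PC libraries, so these counts are not separate evidence. The list medians were 1.91 and −1.34, beside −0.51 and 0.10 over all genes.

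**Figure D5:**
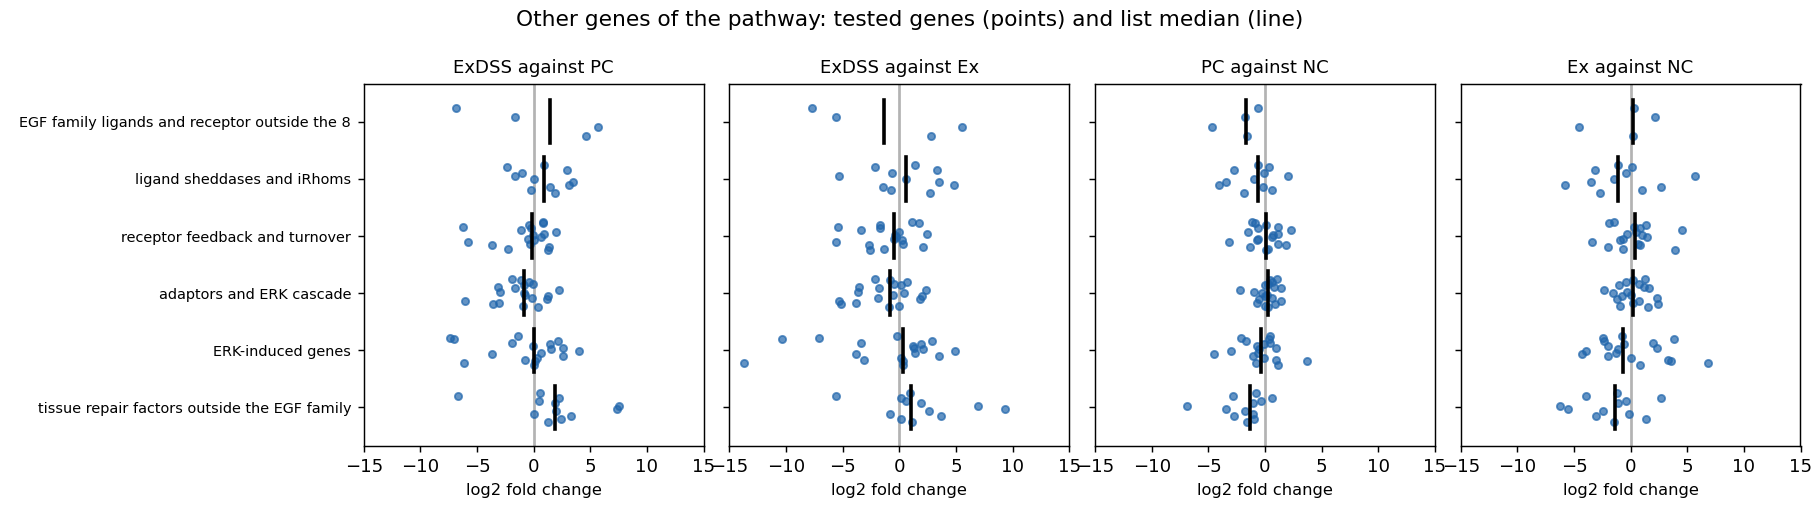
Log2 fold changes from edgeR (horizontal axes) of the tested genes of 6 lists (points) with the list median (black line), in the 4 pairwise comparisons. The repair factors outside the family have medians of 1.91 for ExDSS against PC and −1.34 for PC against NC, and no point in any panel passed the test. Points beyond 5 in either direction include genes with no count in 1 group, whose fitted value is not a bound.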

How the data were processed

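Libraries were made from Trizol RNA with the QuantSeq 3′ mRNA kit, per the labels' protocols. The authors deposited a table of raw counts for each gene, and every library's column matched the title of 1 sample. The submitters' processing notes name Bowtie2, bedtools, edgeR and the build mm9 without versions or roles. The gene coordinates overlapped those of GRCm38.p6 (RefSeq) and are given as in the table.

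Counts were tested with edgeR 4.0.16 in R 4.3.3 (TMM scaling, filterByExpr with a minimum count of 10 and 15 in total, robust quasi-likelihood F test, 1 coefficient per group over 8 libraries, 4 residual degrees of freedom), leaving 14567 genes. P-values were adjusted over all of them by Benjamini-Hochberg, and a gene was called under 0.05. SE was taken as |log2 fold change| over √F. Normalised CPM are the deposited counts over library total times TMM factor. Levels were compared only within a gene. Floors are 3 counts per library, averaged over a group; intervals (95%) and floors cover counting error only. DESeq2 1.42.0 and limma 3.58.1 (voom) were alternatives, with other scalings, filters, sample choices and a replicate block. The scripts were tested on simulated counts for PC against NC with changes of known size. At a dispersion (spread beyond counting error) of 0.1, 74.6% of 4-fold and 100% of 16-fold changes were called. At 1.17, the common dispersion fitted to these data, 0% of 2-, 4- or 16-fold changes were called. A gene that did not pass is therefore not shown to be unchanged. Libraries of a group always differed by more than sampling noise, with a chi-square of 29.5 or more for each gene on average. The members, lists and tests were chosen with earlier results of these data known. Named besides the 8 members were the 2 genes with the smallest p in each pathway list and, per member, the 3 nearest profiles, without gene-model placeholders. Egf, Adam17, Adam10, Jun, Ptgs2 and Plaur were named after their values were seen. The nearest profiles to Tgfa are not reported here. The sum of both DSS differences was fitted in the same model, after seeing the data.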

Additional observations from a re-analysis of the deposited data

Results flagged for a closer look

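For Ereg the DSS difference ran in opposite directions with and without exosomes in every library: both ExDSS libraries were above both Ex libraries, and both PC libraries were below both NC libraries. The test of this difference gave an interaction of 10.66 on the log2 scale (edgeR adjusted p = 0.0284). This direction rests on the labels PC and NC, which the neutrophil genes go against. With these 2 labels read the other way round the contrast for Ereg would be 1.35 (SE 1.77, edgeR adjusted p = 1).

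Erbb2 showed the same opposite directions in every library, with 2 counts behind its value in Ex 2. Of all genes tested, 17.0% were higher in ExDSS than in Ex and 23.6% lower in PC than in NC without overlap. The interaction of Erbb2 was 2.51, and the test of it did not pass (edgeR adjusted p = 0.602). With the labels read the other way round it would be 0.47 (SE 2.25, edgeR adjusted p = 1).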

How the results depend on the processing

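The number of genes called was 0 in each pairwise comparison and 42 in the interaction. For ExDSS against PC, ExDSS against Ex, PC against NC, Ex against NC and the interaction it was 132, 223, 45, 55 and 350 without a filter, and 1526, 2046, 86, 337 and 1672 with DESeq2. With limma-voom it was 1160, 505, 2 and 327, with 0 for Ex against NC. The interaction count was 67 with RLE factors, 6 with total counts and 0 without NC replicate 2 and ExDSS replicate 1 together, a setting chosen after seeing the data. Leaving out 1 library gave 0 to 6 genes for ExDSS against PC, 0 to 1883 for ExDSS against Ex, 0 to 4 for PC against NC, 0 to 1596 for Ex against NC and 0 to 1663 for the interaction, with the highest values of those with Ex and of the interaction when Ex 1 was left out and Ex 2, assumed to vary like the others, stood alone. The replicate numbers share no source in the labels and same-numbered libraries did not deviate together (r between −0.149 and 0.0506), so the replicate block has no base in the design. With it 41 genes were called for ExDSS against PC, 28 for ExDSS against Ex and 161 in the interaction, where Ereg was at 10.50 (adjusted p = 0.00864).

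Over its alternatives Ereg kept its direction in all comparisons. Its interaction was 10.18 to 10.68 with the other scalings, filters and tools, and 10.22 (adjusted p = 0.159) without NC 2 and ExDSS 1. The pairwise fold changes stayed within 5.18 to 5.79 for ExDSS against PC, 5.67 to 7.03 for ExDSS against Ex, −5.12 to −3.92 for PC against NC and −6.09 to −4.43 for Ex against NC when 1 library was left out. Its value for ExDSS against Ex also passed without a filter (6.03, edgeR adjusted p = 0.041), where 223 genes were called. Without Ex 1 its values were 7.03 for ExDSS against Ex and −6.09 for Ex against NC. There Ex 2, with 1 count of Ereg, stood alone for the group.

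Several uncalled member values changed sign, and the cause was not tested. With RLE factors, upper-quartile factors, DESeq2 (0.03 each), TMM without acinar genes and Rn45s (0.04), limma-voom (1.41) and the replicate block (0.99), Egfr turned positive for PC against NC. With upper-quartile factors Areg was −0.08 for ExDSS against PC, and Btc and Egfr 0.04 each for Ex against NC. With total counts Areg was −0.61 and Egfr −0.26 for ExDSS against PC. The interaction of Hbegf was 0.14 with total counts, 0.07 with TMM without acinar genes and Rn45s, 0.01 without a filter, 2.09 with limma-voom and 0.31 with the replicate block. For Ex against NC, Tgfa was 0.22 with DESeq2 and 1.80 with limma-voom, Hbegf −0.49 and Egfr 1.00 with limma-voom, and Egfr 0.34 with the replicate block. For ExDSS against PC, Areg was −0.31 and Egfr −0.17 with limma-voom, and −0.39 and −0.19 with the replicate block. For ExDSS against Ex, Hbegf was 0.90 with limma-voom. The interaction of Egfr was −1.17 with limma-voom and −0.53 with the replicate block. Without NC replicate 2 and ExDSS replicate 1 together, Tgfa was −0.53 for PC against NC, Areg −1.08 and Egfr −1.34 for ExDSS against PC, and Egfr −0.76 for ExDSS against Ex. Btc kept its sign for ExDSS against Ex there, at −8.63 against −1.81 with all libraries.

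Leaving out 1 library gave these ranges, listed where the sign changed. Areg kept its sign in the other comparisons but moved far. It ran from 0.11 to 10.29 for ExDSS against Ex, from −10.57 to −0.72 for Ex against NC and from 0.5 to 10.63 for the interaction. For ExDSS against PC, Areg ran from −1.08 to 0.62 and Egfr from −1.34 to 1.18. For ExDSS against Ex, Hbegf ran from −2.13 to 2.22, Tgfa from −4.99 to 2.29, Btc from −8.51 to 6.66 and Egfr from −0.75 to 1.77. For PC against NC, Areg ran from −0.89 to 0.38, Tgfa from −0.54 to 5.61 and Egfr from −0.95 to 4.03. For Ex against NC, Hbegf ran from −1.82 to 2.53, Tgfa from −5.28 to 4.94, Btc from −8.50 to 0.76 and Egfr from −1.55 to 3.37. For the interaction, Hbegf ran from −0.88 to 3.48, Tgfa from −8.29 to 1.82, Btc from −9.44 to 5.68 and Egfr from −2.84 to 1.97. Scaling moved the median of all genes, to −0.91 for ExDSS against PC and 0.29 for PC against NC with total counts. Depth limits Ex 2, where 7 of the 8 members had at most 2 counts.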

Other observations

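The library labelled Ex 2 held many genes at far higher levels than Ex 1, beside its low epithelial marker sum of 59.6 CPM. With at least 10 counts and at least 5 times the CPM of Ex 1, these were 15 of the 89 tested members and pathway genes (16.9%) and 1257 of all 14567 genes tested (8.63%). Hbegf was at 131 CPM there against 5.72 CPM in Ex 1, Errfi1 at 447 against 17.2 CPM, Fosl1 at 331 against 0.408 CPM, Adam19 at 162 against 5.21 CPM, Adam10 at 429 against 29 CPM and Jun at 607 against 53.9 CPM. These values rest on 88 counts of Hbegf, 300 of Errfi1 and 222 of Fosl1, in a library of 1163147 counts. Adam10 and Jun were picked after their values were seen.

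Both libraries labelled ExDSS had no count of Ptgs2, the cyclooxygenase of prostaglandin synthesis in injured gut, and none of Plaur, the urokinase receptor, although Ereg and Il11 were high there. In PC, Ptgs2 had 1.74 and 0.706 CPM and Plaur 1.67 and 2.43 CPM, and in NC they had 14 and 3.05 CPM and 15.5 and 2.67 CPM. Both genes were picked after their values were seen. Such zeros were common, since 14.8% of all genes tested had no count in both ExDSS libraries, against 0.405% in both PC libraries, and 9825 and 11874 genes were detected in ExDSS against 16787 and 16790 in PC.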
